A study of Mus musculus with 12 samples.

Results

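The stromal vascular cells of inguinal white adipose tissue (iWAT, a subcutaneous depot) were compared with those of epididymal white adipose tissue (eWAT, a visceral depot of male mice) in obese mice given rosiglitazone. The comparison rested on single-cell RNA-seq libraries labelled ob/ob-Rosi, 2 of iWAT and 2 of eWAT, out of 12 libraries in the series. A barcode was kept as a cell when it held 700 to 22000 unique molecular identifiers (UMIs, each standing for 1 captured transcript), 200 to 6000 genes and under 25% UMIs of mitochondrially encoded genes. This left 46681 of the 126095 cells of the series, with 9439 and 10068 cells in the eWAT libraries and 9674 and 17500 in the iWAT libraries. UMIs were summed per library, over all cells and over the cells of each class, and the depots were compared over libraries.

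All mice were male and 12 weeks old. The ob/ob-Rosi mice were Lepob/Lepob, and so lacked functional leptin, and received 30 mg/kg rosiglitazone by gavage every morning and evening on 3 days. The ob/ob-Veh mice had the same genotype and received the methylcellulose vehicle, and the WT-Veh mice were C57BL/6J and received the vehicle. Each of the 6 groups of depot and treatment had 2 libraries, labelled as biological replicates, and the labels did not say whether an eWAT and an iWAT library of the same number came from 1 mouse. Pieces from several places of a depot were digested with collagenase. The floating layer with the adipocytes was discarded, so the cells stood for the pelleted part of the tissue. The paper proposes that lipid-associated macrophages floated with the adipocytes. It found macrophages in that layer of both depots of ob/ob-Veh mice and fewer in ob/ob-Rosi samples. The share of such cells lost from each depot was not tested.

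Rosiglitazone is a thiazolidinedione that activates PPARγ, the nuclear receptor that drives adipocyte differentiation and lipid storage. Adipocyte progenitor cells (APCs) include Pi16- and Dpp4-expressing progenitors and more committed preadipocytes, and in each depot they retain transcription factors of the embryonic tissue they came from. Among the macrophages of fat, lipid-associated macrophages (LAMs) carry Trem2 and Gpnmb and take up lipid, whereas perivascular macrophages (PVMs) carry Lyve1, Cd163 and, in part, Timd4.

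The ob/ob-Rosi libraries held 34460028 and 61696779 UMIs in kept eWAT cells and 48883311 and 66315901 in kept iWAT cells, with medians per cell of 2341, 4961, 3714 and 3160.5. The deposited iWAT files held no barcode above 22000 UMIs or 25% mitochondrial UMIs, while the eWAT files did. The fewest genes of any barcode were 283 and 277 in the ob/ob-Rosi iWAT files and 164 and 94 in the eWAT files. The limit of 200 genes could therefore remove barcodes only from eWAT. A filter before deposition and the depot cannot be told apart. Libraries shared few kept barcodes, at most 99 with any 1 ob/ob-Rosi library, and 48 and 62 between eWAT and iWAT libraries of the same number. The Lepob mutation is a premature stop that leaves a transcript, so Lep UMIs do not check the genotype. Lep stood at 1.74 and 4.49 CPM (UMIs of the gene scaled to a common library total) in ob/ob-Rosi eWAT, 3.42 and 2.97 in ob/ob-Rosi iWAT and 0.139 to 1.69 in the other 8 libraries. Adipoq, a defining adipocyte transcript, stood at 0.725 and 1.15 CPM in ob/ob-Rosi eWAT and 2.09 and 2.11 in iWAT. Cells were clustered over all 12 libraries and clusters were named from marker genes, hence the suffix "-like".

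The promoters of 4 genes that carry the depot contrast described below are shown. In APC-like and macrophage-like cells, each is the first gene in its direction, by the log2 difference of the fit, among the named genes whose 250 bases before the start lie in no annotated exon, a condition under which Timd4 stands in for Retnla. For Shox2, with 0 UMIs in eWAT, that fitted difference depends on the prior count, so its place above Bmp3 and Mrgprg is no ranking of size. Each run is the 250 bases before the RefSeq start of the gene (GRCm38.p6), 5′ to 3′ on the strand of the gene. Capitals mark the letters TATAAA, a motif known as the TATA box. They also mark GGGCGG, known as the GC box motif. Both strands were searched, so that a motif on the opposite strand is printed as its complement read in the direction of the gene. Shox2 (chr3:66981772-66982021, minus strand) and Timd4 (chr11:46810549-46810798, plus strand) were higher in iWAT, and Ahsg (chr16:22891765-22892014, plus strand) and Spp1 (chr5:104434861-104435110, plus strand) were higher in eWAT.
Shox2: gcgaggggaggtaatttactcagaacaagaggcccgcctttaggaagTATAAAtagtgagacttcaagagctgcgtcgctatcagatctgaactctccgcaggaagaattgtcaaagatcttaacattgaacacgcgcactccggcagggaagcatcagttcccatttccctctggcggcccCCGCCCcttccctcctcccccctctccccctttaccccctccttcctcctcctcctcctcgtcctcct
Ahsg: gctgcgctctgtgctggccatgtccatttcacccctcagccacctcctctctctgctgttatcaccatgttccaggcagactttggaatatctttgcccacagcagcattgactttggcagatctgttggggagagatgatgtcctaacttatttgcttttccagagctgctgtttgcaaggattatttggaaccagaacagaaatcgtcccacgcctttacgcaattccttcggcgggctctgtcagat
Timd4: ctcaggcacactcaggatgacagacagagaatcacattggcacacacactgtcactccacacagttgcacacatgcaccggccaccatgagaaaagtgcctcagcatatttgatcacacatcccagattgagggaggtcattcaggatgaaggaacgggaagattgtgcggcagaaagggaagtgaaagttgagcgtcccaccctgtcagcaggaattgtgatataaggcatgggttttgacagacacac
Spp1: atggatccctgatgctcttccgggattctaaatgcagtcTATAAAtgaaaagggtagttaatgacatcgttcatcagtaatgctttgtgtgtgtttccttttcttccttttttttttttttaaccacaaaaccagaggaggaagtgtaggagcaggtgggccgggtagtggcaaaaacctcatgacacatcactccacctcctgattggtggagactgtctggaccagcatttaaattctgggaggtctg
TATAAA began 203 bases before the start of Shox2 and 211 bases before that of Spp1, and the GGGCGG motif of Shox2 lay 68 bases before its start. Ahsg and Timd4 held neither motif in this window. Over 27025 RefSeq promoters of the same length, 13% held TATAAA and 32.9% held GGGCGG.

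APC-like cells made up 25.7% and 24.9% of the eWAT libraries and 26.7% and 38.1% of the iWAT libraries, and macrophage-like cells 54.1% and 47.7% of eWAT and 40.3% and 38.6% of iWAT. Progenitor-like cells were 1.99% and 0.487% of cells in eWAT and 9.26% and 19.9% in iWAT, while preadipocyte-like cells were 23.4% and 24.4% in eWAT and 17.1% and 18.2% in iWAT. LAM-like cells were 14.8% and 17.7% of eWAT and 5.04% and 2.65% of iWAT, and PVM-like cells were 13.9% and 6.7% of eWAT and 21.7% and 27.1% of iWAT. Macrophage-like cells of no named sub-class were 17.8% and 16% of eWAT and 6.59% and 3.28% of iWAT. The libraries of the depots did not overlap for these 5 sub-classes. They overlapped for non-perivascular macrophage (NPVM)-like cells, at 4.93% and 2.9% in eWAT and 3.82% and 4.54% in iWAT, and for monocyte-like and T cell-like cells. Natural killer-like and group 2 innate lymphoid-like cells overlapped too, as did APC-like and T-lineage cells of no named sub-class. Of the whole lineages, only T and natural killer (T/NK)-like, mural-like and lymphatic endothelial-like cells overlapped. Endothelial (EC)-like cells reached 4.94% and 8.31% in eWAT and 21% and 11.2% in iWAT. The PVM-like share depended on the clustering. In iWAT replicate 2, 2230 of 4739 PVM-like cells came from cluster 10, which held 305 cells of iWAT replicate 1 and 124 and 217 of eWAT. At a lower resolution, cluster 3, also with Mgl2 and Vcam1 among its leading genes, had no named sub-class. It held 2310 cells of iWAT replicate 2, and the PVM-like clusters 8 and 9 held 2646 and 46.

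Cell numbers of 12 classes, unnamed cells among them, were tested with edgeR's quasi-likelihood test on cells per library. A cluster led by haemoglobin genes (Hbb-bs, Hba-a1) together with the mast cell protease genes Cma1, Mcpt4 and Tpsb2 passed the test, with 44 and 20 cells in eWAT and 0 and 0 in iWAT (log2 difference iWAT minus eWAT, fitted and not a bound, -8.13, adjusted p = 0.00796). When cells were assigned singly to lineages this difference was 0.85, and its adjusted p was 0.0703 without iWAT replicate 2 and 0.0784 with the 4 ob/ob-Rosi libraries alone, where unnamed cells were called in its place (-2.12, adjusted p = 0.0437). Over all cells of a library, the 8 mast cell markers summed to 16.7 and 37.6 CPM in eWAT and 34.9 and 26.3 in iWAT. The 7 erythrocyte genes summed to 1148 and 322 CPM in eWAT and 75.3 and 127 in iWAT. Mesothelial-like cells, which carry the serosal markers Msln and Upk3b, numbered 99 and 51 in eWAT and 15 and 0 in iWAT (log2 difference -3.38, adjusted p = 0.161, and 0.0225 with the replicate number as a block). Their log2 difference was -9.36 without iWAT replicate 1, -2.32 without iWAT replicate 2 and -3.44 with cells assigned singly (adjusted p = 0.0177). EC-like cells differed by 1.28 (adjusted p = 0.417), DC-like (dendritic) cells by -0.93 (0.552), T/NK-like (T and natural killer) cells by 0.43 (0.751), macrophage-like cells by -0.37 (0.751) and APC-like cells by 0.36 (0.751). Sub-class numbers were not tested, since the genes that defined the sub-clusters differed between depots.

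**Figure D1:**
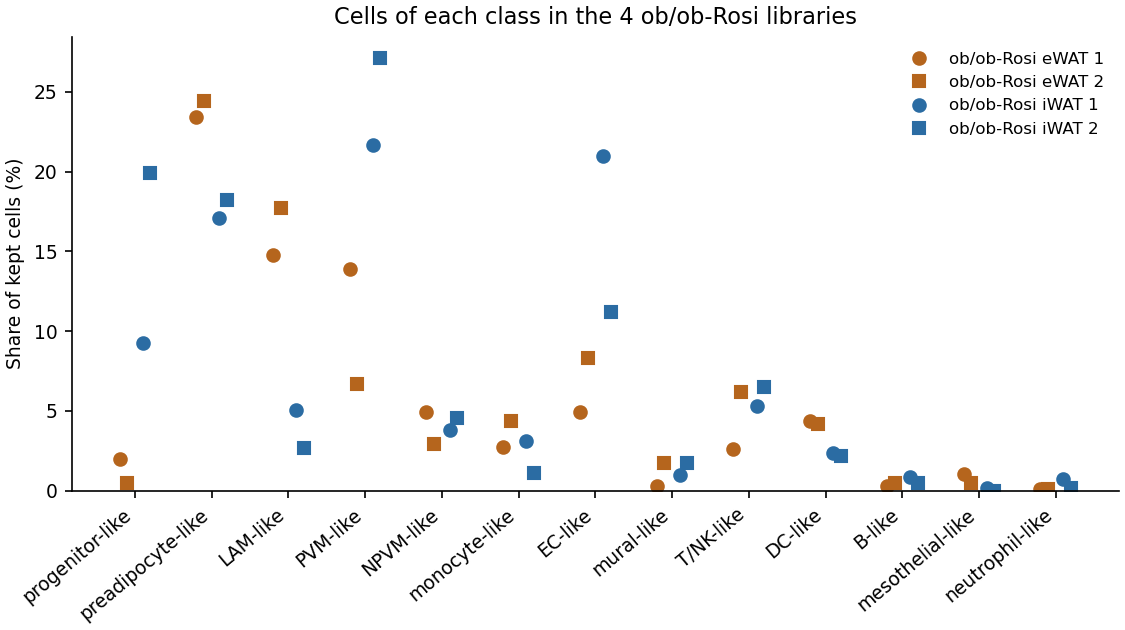
Share of kept cells (%) of each class in the 4 ob/ob-Rosi libraries, 1 symbol per library. Progenitor-like and PVM-like cells sit higher in both iWAT libraries, at 9.26% and 19.9% and at 21.7% and 27.1%, and LAM-like cells higher in both eWAT libraries, at 14.8% and 17.7%. Shares are from the main clustering, at resolution 2.

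APC-like cells numbered 2427 and 2507 in eWAT and 2580 and 6668 in iWAT. A gene was called when its Benjamini-Hochberg adjusted p over all genes tested was at most 0.05 and it changed at least 1.1-fold. Of 14120 genes tested, 726 were called (5.14%), 405 higher in iWAT (2.87%) and 321 higher in eWAT (2.27%). With the replicate number as a block 1641 genes were called, all 726 among them. The count was 245 without eWAT replicate 2, 282 without iWAT replicate 2 and 440 without iWAT replicate 1. Among the 726, 608 stood in the higher depot at 20% or more of the highest level of any lineage there, 360 of them higher in iWAT. Values below are CPM scaled by edgeR's trimmed mean of M-values (TMM), given for eWAT replicates 1 and 2 and then iWAT replicates 1 and 2.

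Of the factors that set position and limb identity in the embryo, 13 outside the Hox clusters were called higher in iWAT APC-like cells and 6 higher in eWAT, of 38 tested, beside 2.87% and 2.27% of all genes. Shox2, a homeobox factor of limb patterning, had 0 UMIs in both eWAT libraries and 22.7 and 42.9 CPM in iWAT. Against a floor of 3 counts over the eWAT group it was at least 233-fold higher in iWAT (adjusted p = 0.000302). Tbx15, a T-box factor of the skeleton and of fat, stood at 0.133 and 0.0788 CPM in eWAT and 37.7 and 33.4 in iWAT, a ratio of the UMI shares pooled over the libraries of each depot of 340 (95% counting interval 93.9 to 2810, adjusted p = 1.11e-05). Irx1, Irx2, Irx5, Tbx5 and Lhx8 also had 0 UMIs in eWAT and were at least 84.2-fold, 54.6-fold, 73.6-fold, 63.7-fold and 45.4-fold higher in iWAT. Libraries of the depots did not overlap for these 7 genes, which held for all 726 called genes and for 40.1% of all genes tested.

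Pitx1, a factor of hindlimb identity, stood at 0.133 and 0 CPM in eWAT and 2.24 and 3.46 in iWAT, a pooled ratio of 59.2 from 1 eWAT UMI (95% counting interval 10.4 to 2360). Irx3 stood at 0.133 and 0.158 CPM in eWAT and 2.96 and 5.82 in iWAT. Osr2 (4.51 and 4.49 CPM against 59.5 and 90.4), Emx2 (4.64 and 2.29 against 28 and 38.9) and En1 (3.58 and 3.31 against 26.5 and 30.1) were present in eWAT as well and were higher in iWAT by 4.06 ± 0.43, 3.32 ± 0.43 and 3.04 ± 0.30 on the log2 scale (± SE, 2 libraries per depot). Meox2 was higher in iWAT by 1.09 ± 0.24 and stood under 20% of its highest lineage level.

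The 6 factors called higher in eWAT were led by Wt1 and Tcf21. Wt1, known from the mesothelium and from progenitors of visceral fat, stood at 52.5 and 34.9 CPM in eWAT and 2.96 and 0 in iWAT (log2 difference -5.11 ± 0.99, adjusted p = 0.0181). Tcf21, a basic helix-loop-helix factor of visceral organ mesenchyme, stood at 26.4 and 22.5 CPM in eWAT and 1.76 and 0.0422 in iWAT (-5.02 ± 0.83, adjusted p = 0.00643). The 11 mesothelial markers, Wt1 among them, summed to 70.6 and 48.2 CPM in eWAT APC-like cells and 15.2 and 9.45 in iWAT. In the same plain CPM, Wt1 alone stood at 53.4 and 34.2 in eWAT and 2.86 and 0 in iWAT. The sum is thus no gauge of mesothelial RNA apart from Wt1, and the part of that RNA was not tested. For Wt1 and Tcf21 nearly all iWAT UMIs came from replicate 1. With barcodes shared between libraries left out, plain CPM in iWAT replicate 1 went from 2.86 to 2 for Wt1 and from 1.7 to 1.52 for Tcf21. Nr2f2 (COUP-TFII) fell from 105 and 107 CPM in eWAT to 37.5 and 29.5 in iWAT (-1.66 ± 0.28), and Foxc2, Foxc1 and Prrx2 also passed the test in the direction of eWAT, with log2 differences of -3.03, -1.53 and -1.38.

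The list of 38 had a median log2 difference of 0.43, against -0.03 over all genes. Among 26 Hox genes tested, Hoxc10 (4.91 and 0 CPM against 33 and 50.1, 4.26 ± 0.96) and Hoxa9 (3.71 and 0.473 against 10.2 and 17.3) were called higher in iWAT and Hoxa5 (23.1 and 37.4 against 8.08 and 10.8) higher in eWAT, beside 2.87% and 2.27% of all genes. Hoxc8 and Hoxc9, which are expressed in both depots, did not pass the test (log2 differences -0.64 and 0.53, adjusted p = 0.528 and 0.781), nor did Prrx1 (0.35, adjusted p = 0.576). Some called factors are neighbours in the genome. Irx1 and Irx2 lie 665 kb apart on chromosome 13 and Irx3 and Irx5 lie 556 kb apart on chromosome 8.

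**Figure D2:**
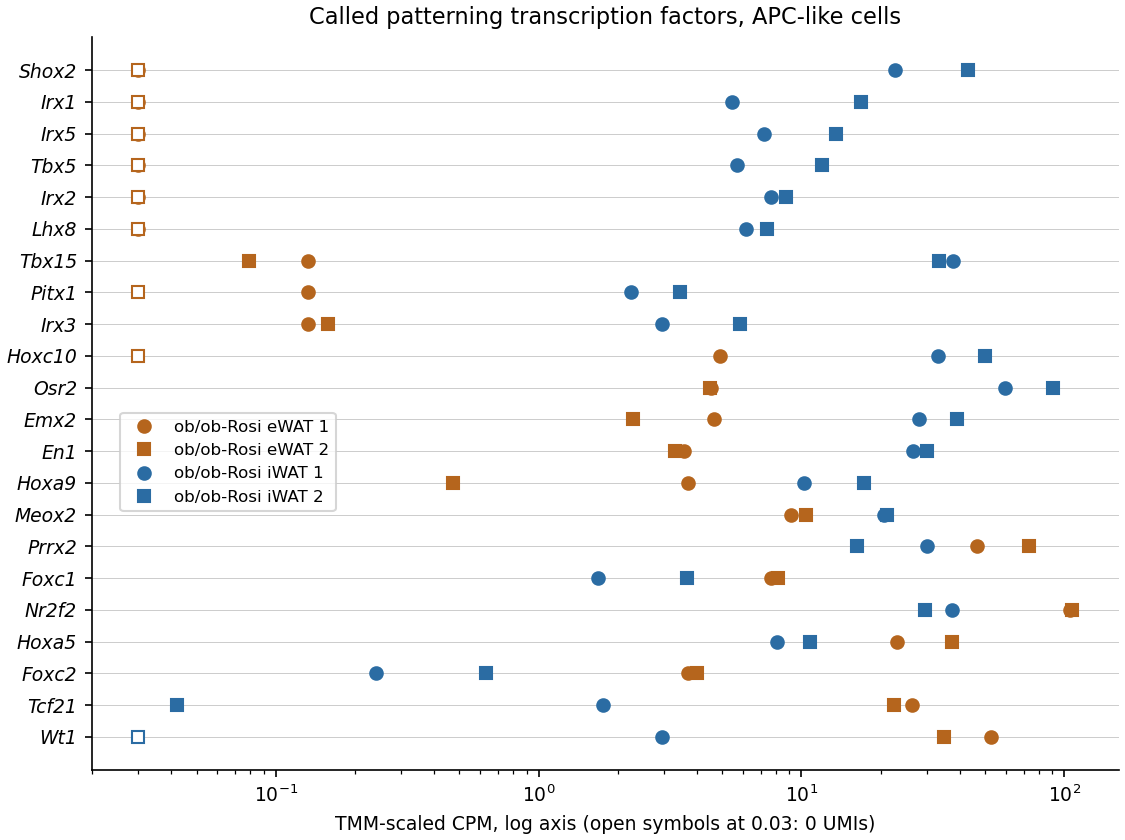
TMM-scaled CPM (log axis) of the 22 patterning and Hox factors called between depots in APC-like cells, 1 symbol per ob/ob-Rosi library, with 0 UMIs drawn as open symbols at the left. Shox2, Irx1, Irx2, Irx5, Tbx5 and Lhx8 have open symbols in both eWAT libraries. All were chosen as called, and every called gene in these cells was separated between depots, as were 40.1% of all genes.

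Secreted signals formed a further group. Bmp3, a member of the bone morphogenetic protein family, stood at 0.265 and 0 CPM in eWAT and 102 and 74.1 in iWAT, a pooled ratio of 815 from 2 eWAT UMIs (95% counting interval 225 to 6730, adjusted p = 4.36e-05). Bmp7 (2.39 and 0.946 CPM against 29.9 and 50.3), Bmp2 (5.44 and 5.28 against 37.9 and 32.9) and the BMP inhibitor Chrdl1 (3.71 and 1.26 against 49.5 and 23.2) were called higher in iWAT. The activin subunits Inhbb (64.9 and 80.5 against 15.8 and 16.3) and Inhba (12.2 and 7.49 against 1.52 and 1.56) were called higher in eWAT. Of 26 TGF-beta and BMP ligands and inhibitors tested, 4 and 2 were called in these directions, beside 2.87% and 2.27% of all genes.

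Wnt ligands and their secreted modulators were called in both directions, 7 higher in iWAT and 6 higher in eWAT of 22 tested, beside 2.87% and 2.27% of all genes. Wnt10b, a ligand that restrains adipogenesis, stood at 1.99 and 0.552 CPM in eWAT and 37.3 and 19.2 in iWAT (4.59 ± 0.52, adjusted p = 0.00052), and Wnt2, Wnt11, Wnt16, Dkk2, Sfrp2 and Rspo3 were also higher in iWAT. Frzb, a secreted Wnt antagonist, stood at 8.09 and 31.9 CPM in eWAT and 0.24 and 0.422 in iWAT (-5.81 ± 0.85, adjusted p = 0.00246). Wnt4 (21.1 and 9.7 CPM against 0.48 and 0.886), Rspo1 (19.5 and 10.7 against 1.44 and 1.56), Wnt6, Wisp1 and Sfrp1 were also higher in eWAT, of which Rspo1 stood under 20% of its highest lineage level. The list was thus split by member rather than moved as a whole.

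Among genes of insulin-like growth factor binding, Igfbp5 stood at 167 and 41.3 CPM in eWAT and 5067 and 3879 in iWAT (5.43 ± 0.67, adjusted p = 0.000884), and Igfbp3 at 28.8 and 11 against 484 and 306 (4.32 ± 0.64). Igfbp7 was higher in eWAT (1674 and 3288 against 944 and 910, -1.42 ± 0.33). In retinoid metabolism, the carotene oxygenase gene Bco1 (pooled ratio 61.7 from 2 eWAT UMIs, 95% counting interval 16.9 to 512) and Rarres2 were higher in iWAT, while the retinaldehyde dehydrogenase gene Aldh1a2 (26 and 13 CPM against 1.44 and 0.801) was higher in eWAT. Aldh1a2 stood under 20% of its highest lineage level. Vegfa, the angiogenic growth factor, stood at 15.9 and 11.5 CPM in eWAT and 76 and 81.8 in iWAT (2.53 ± 0.24, adjusted p = 0.000219).

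Of 53 matrix glycoproteins and proteoglycans tested, 10 were called higher in eWAT and 5 in iWAT, and of 30 collagens, 5 and 1, beside 2.27% and 2.87% of all genes. The difference between the directions was not tested. Mgp, the matrix Gla protein that inhibits calcification, stood at 10132 and 10510 CPM in eWAT and 1002 and 538 in iWAT (-3.74 ± 0.38, adjusted p = 0.000319). Ltbp2, which binds to elastic microfibrils, stood at 32 and 43.2 CPM in eWAT and 0.56 and 0.422 in iWAT (-6.27 ± 0.48, adjusted p = 6.17e-05). Col6a5 (433 and 187 CPM against 18.7 and 1.22) and Col8a1 (99.9 and 185 against 12.4 and 9.66) were higher in eWAT and Col12a1 (14.3 and 12.6 against 176 and 126) in iWAT. The abundant fibrillar collagens did not pass the test, with log2 differences of 0.11 for Col3a1 (adjusted p = 0.968), 0.28 for Col1a1 (0.837) and 0.32 for Col1a2 (0.751).

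Of 25 contractile genes tested, 8 were called higher in eWAT APC-like cells and 0 higher in iWAT, beside 2.27% and 2.87% of all genes (11 and 3 with the replicate block, which called 1641 of 14120 genes). Tagln stood at 86.1 and 186 CPM in eWAT and 4.88 and 7.93 in iWAT, Acta2 (smooth muscle actin) at 44.8 and 101 against 4.4 and 8.82, Tpm2 at 105 and 125 against 7.92 and 11.4, and Des (desmin) at 50.4 and 80.6 against 7.12 and 4.68. The summed level of the 10 mural markers in these cells was 247 and 439 CPM in eWAT and 69.1 and 72.3 in iWAT, against 2877 to 3537 CPM in mural-like cells. The part of mural RNA in this difference was not tested.

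Further genes with large differences had no patterning role. Sums over APC-like cells also follow the share of progenitor-like cells among them, which is given below. Mrgprg, a Mas-related G protein-coupled receptor gene, stood at 0.531 and 0.0788 CPM in eWAT and 119 and 252 in iWAT (9.46 ± 0.77, adjusted p = 9.62e-05), and Akr1c18, which encodes a hydroxysteroid dehydrogenase that inactivates progesterone, at 1.06 and 0.946 against 155 and 226 (7.57 ± 0.57, adjusted p = 6.17e-05). Higher in eWAT were the plasma protein gene Ahsg (fetuin-A, 11.7 and 29.6 CPM against 0.4 and 0.0422, -6.79 ± 0.84) and the kininogen gene Kng2 (27.7 and 47.6 against 1.76 and 0.675). Shox2, Bmp3, Mrgprg, Tbx15, Akr1c18, Ahsg, Ltbp2 and Kng2 were called in the same direction under all 16 alternative settings, and Frzb under all 15 in which it was tested.

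Neighbouring genes differed in the same direction at a further pair of places. On chromosome 7, Sbsn, Dmkn and Krtdap, which encode secreted proteins of the epidermis, follow each other with gaps of 7.62 and 6.83 kb. Krtdap stood at 5.57 and 1.89 CPM in eWAT and 277 and 370 in iWAT (6.5 ± 0.64), Dmkn at 17.4 and 4.34 against 514 and 612 (5.73 ± 0.58), and Sbsn at 88.7 and 58.3 against 1021 and 1542 (4.13 ± 0.50). On chromosome 16, Ahsg, Fetub and Kng2 lie 18.9 and 46.1 kb apart and were all higher in eWAT, Fetub at 6.77 and 18.6 CPM against 1.6 and 1.31 (-3.14 ± 0.53). These neighbours were picked after their values were seen. The 15 skin and mammary epithelium genes, Krtdap not among them, summed to 2.56 and 1.47 CPM in eWAT and 3.32 and 3.09 in iWAT.

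Of 35 PPAR target genes tested 3 were called, beside 5.14% of all genes. Mgll was called higher in iWAT and Fads3 and Ucp2 higher in eWAT, Mgll and Ucp2 at under 20% of their highest lineage level. Fabp4 (845 and 1543 CPM against 2317 and 1712, adjusted p = 0.715), Lpl (2234 and 1487 against 1730 and 909, 0.757), Plin2 (270 and 583 against 180 and 238, 0.159) and Cd36 (159 and 123 against 225 and 81.6, 0.977) did not pass the test. Pparg itself stood at 7.96 and 19.6 CPM in eWAT and 19.7 and 16.2 in iWAT (0.37 ± 0.51, adjusted p = 0.866). Of 24 adipogenic transcription factors only Klf4, which is also an immediate early gene, was called (580 and 448 CPM against 2124 and 2121). None of 75 nuclear oxidative phosphorylation genes and none of 25 cholesterol synthesis genes was called by edgeR, with or without the block.

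The 28 immediate early genes that tissue digestion induces summed to 11771 and 8477 CPM in eWAT APC-like cells and 19774 and 18418 in iWAT. Of these, 4 (Jun, Fos, Ier3, Klf4) were called higher in iWAT and Hspa1b higher in eWAT, beside 2.87% and 2.27% of all genes. The 10 macrophage markers summed to 1898 and 1776 CPM in eWAT and 947 and 818 in iWAT APC-like cells, and 5 of 30 LAM list genes tested (Trem2, Lgals3, Cd9, Syngr1, Atp6v0d2) were called higher in eWAT there, beside 2.27% of all genes. Trem2 stood at 120 and 151 CPM in eWAT APC-like cells and 37.4 and 23.2 in iWAT, under 20% of its level in macrophage-like cells of the same depot. The part of macrophage RNA and of digestion in these calls was not tested. Of 39 interferon-stimulated genes, 6 were called higher in iWAT (Ifi27l2a, Rsad2, Zbp1, Ifit1, Usp18, Cxcl10) and Ifitm1 (68.3 and 58.3 CPM against 9.04 and 5.86) higher in eWAT, beside 2.87% and 2.27% of all genes.

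**Figure D3:**
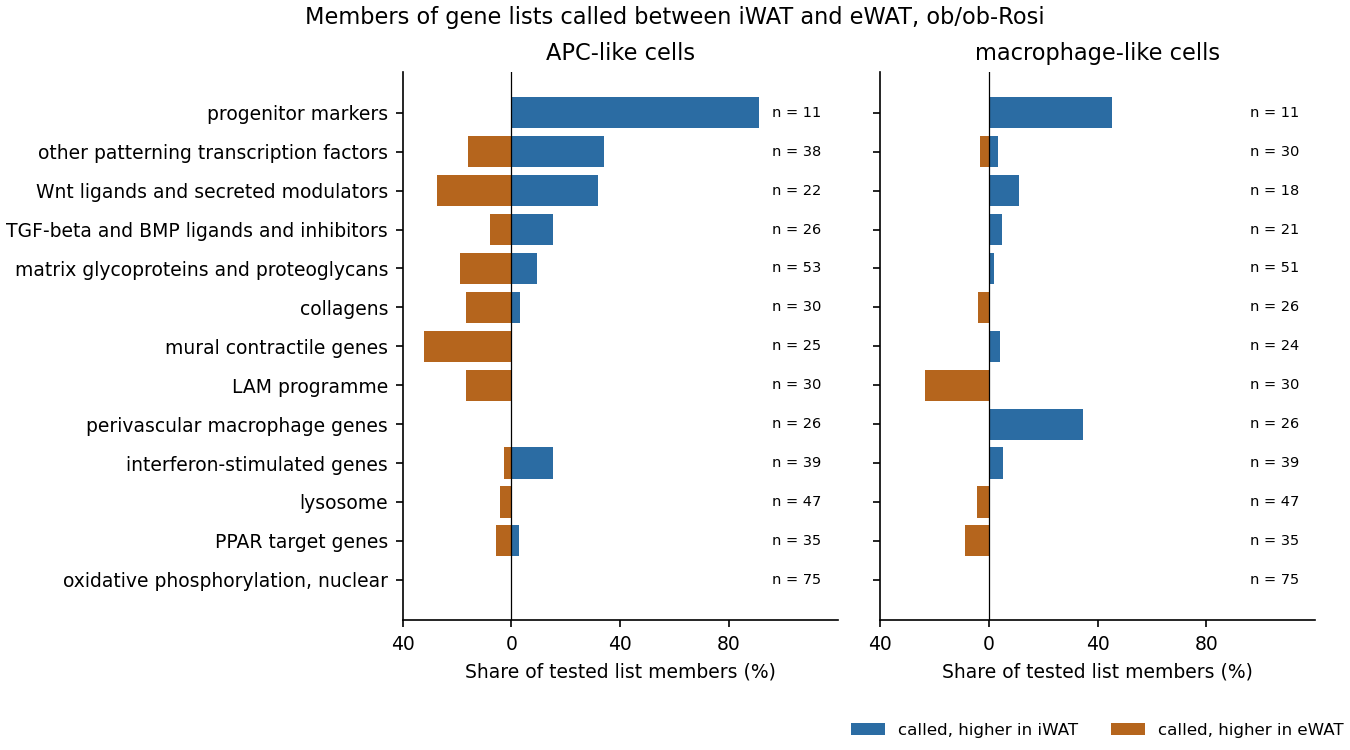
Share (%) of the tested members of each gene list called higher in iWAT (right) or higher in eWAT (left) in APC-like and macrophage-like cells, n being the members tested. In APC-like cells 10 of 11 progenitor markers and 13 of 38 patterning factors extend to the right, and in macrophage-like cells 9 of 26 perivascular genes extend to the right and 7 of 30 LAM genes to the left. Of all genes, 2.87% were called higher in iWAT and 2.27% higher in eWAT in APC-like cells, and 0.555% and 0.316% in macrophage-like cells.

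Pi16 stood at 257 and 174 CPM in eWAT and 2123 and 3495 in iWAT (3.70 ± 0.50, adjusted p = 0.0016), and Dpp4, a surface protease of the same cells, at 67.3 and 27.2 against 370 and 286 (2.80 ± 0.39, adjusted p = 0.00203). Of 11 progenitor markers tested, 10 were called higher in iWAT, beside 2.87% of all genes, and of 11 committed preadipocyte markers 0 were called in either direction, beside 5.14%. Icam1, a marker of committed preadipocytes, stood at 64.7 and 77.2 CPM in eWAT and 93.9 and 43.8 in iWAT (-0.05 ± 0.41, adjusted p = 0.988). Progenitor-like cells numbered 188 and 49 in eWAT and 896 and 3483 in iWAT, but the same markers had served to name their clusters, so the marker sums and the cell numbers are no independent evidence of each other. Mrgprg, Akr1c18, Krtdap, Dmkn, Sbsn, Igfbp5 and Col12a1 were among the leading genes of the progenitor-like cluster 24. That cluster held 16 and 6 cells in ob/ob-Rosi eWAT and 775 and 3443 in iWAT. The part of this makeup in their differences over APC-like cells was not tested. The comparison was therefore repeated within each sub-class.

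Within progenitor-like cells, 286 of 12463 genes were called (2.29%), 143 in each direction (1.15% and 1.15%), and within preadipocyte-like cells 264 of 12908 (2.05%), 119 higher in iWAT (0.922%) and 145 higher in eWAT (1.12%). With the replicate block the counts were 800 and 1077, with all of the first calls among them. Scaled by library size alone, progenitor-like calls split 109 to 175, against 143 to 143. Different clusters held most of each sub-class in the depots. Progenitor-like cells came from cluster 24 in iWAT (775 and 3443 cells, led by Mrgprg, Krtdap and Sbsn) and cluster 1 in eWAT (168 and 43 cells, led by Nov and Fbn1). Preadipocyte-like cells came from clusters 0 and 3 in eWAT (851 and 1783, and 1323 and 629 cells) and clusters 21 and 23 in iWAT (1165 and 2306, and 259 and 578 cells).

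Some patterning factors were called in both sub-classes. In preadipocyte-like cells Shox2 had 0 UMIs in eWAT and 24 and 44.4 CPM in iWAT (at least 229-fold higher, adjusted p = 0.000375), and Tbx15 stood at 0.15 and 0.0798 against 45.7 and 43 (pooled ratio 416 from 2 eWAT UMIs, 95% counting interval 115 to 3440). In progenitor-like cells, with 188 and 49 eWAT cells, Shox2 stood at 23.6 and 42.1 CPM in iWAT and was at least 9.6-fold higher, and Tbx15 stood at 31.3 and 25.9 and was at least 7.11-fold higher. Tcf21 was higher in eWAT in both, at 59 and 120 CPM against 2.63 and 0.0771 in progenitor-like cells and at 23.6 and 19.9 against 0.144 and 0 in preadipocyte-like cells. Wt1 stood at 62.4 and 44.7 against 4.04 and 0 in progenitor-like cells and at 52.9 and 34.3 against 0.289 and 0 in preadipocyte-like cells. In all, 7 factors were called higher in iWAT and 4 higher in eWAT of 32 tested in progenitor-like cells, beside 1.15% and 1.15% of all genes, and 11 and 5 of 34 in preadipocyte-like cells, beside 0.922% and 1.12%.

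Further genes were called within the sub-classes. Mrgprg stood at 6.74 and 3.44 CPM in eWAT and 298 and 455 in iWAT progenitor-like cells (6.07 ± 0.58, adjusted p = 4.3e-05), but at 2.02 and 6.62 CPM in iWAT preadipocyte-like cells, with 0 UMIs in eWAT. Prkg2, a cGMP-dependent protein kinase gene, had 0 UMIs in eWAT progenitor-like cells and 248 and 243 CPM in iWAT (at least 63.5-fold higher). Cilp, a matrix gene of cartilage, stood at 763 and 423 CPM in eWAT progenitor-like cells and 10.7 and 12.3 in iWAT (-5.69 ± 0.46, adjusted p = 1.42e-05). In preadipocyte-like cells Cilp stood at 542 and 428 CPM against 161 and 75.1 (-2.04 ± 0.43). In preadipocyte-like cells Igfbp3 (27.4 and 11 CPM against 561 and 419) and the chemokine gene Cxcl13 (17.4 and 3.59 against 434 and 112) were higher in iWAT and Col6a5 (457 and 189 against 9.39 and 2.08) and the adhesion gene Cadm4 (21.6 and 39.5 against 0.722 and 0.945) higher in eWAT. Whether a gene's depot difference differed between the sub-classes was not tested.

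Within progenitor-like cells, Dpp4 (310 and 217 CPM against 827 and 478, adjusted p = 0.0543) did not pass the test. There 4 of 11 progenitor markers were called higher in iWAT, beside 1.15% of all genes. In preadipocyte-like cells 1 of 11 was called, beside 2.05% of all genes in either direction. These markers had also named the sub-classes, so their differences within them are a description. Higher in eWAT progenitor-like cells were the tetraspanin gene Cd9 (474 and 389 CPM against 95.5 and 89.8), the imprinted gene Mest (27 and 92.9 against 4.04 and 2.47) and the growth factor gene Igf1 (115 and 92.9 against 27.5 and 26.4). Where clusters were cut at a lower resolution, the progenitor-like clusters 15 and 16 held 16 and 7 and then 4 and 0 ob/ob-Rosi eWAT cells. This left 1 eWAT library in the fit, so no count from it is set beside the 286 calls.

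Macrophage-like cells were the most abundant lineage in all 4 libraries. Of 14247 genes tested 124 were called (0.87%), 79 higher in iWAT (0.555%) and 45 higher in eWAT (0.316%), and 751 with the replicate block, all 124 among them. The count fell to 1 without eWAT replicate 2, to 1 without iWAT replicate 2 and to 1 with the 4 ob/ob-Rosi libraries alone. Scaled by library size alone, the split was 99 to 30, and that scaling moved the median of all genes to 0.11 on the log2 scale. Of the 124 genes, 75 stood in the higher depot at 20% or more of the highest level of any lineage, 37 higher in iWAT and 38 higher in eWAT. The APC markers summed to 700 and 548 CPM in eWAT macrophage-like cells and 1149 and 973 in iWAT, and Pi16 and Igfbp5 were among the calls that missed that limit. The immediate early genes of digestion summed to 10477 and 9831 CPM in eWAT and 20893 and 19075 in iWAT, and the 19 adipocyte genes to 3213 and 2127 against 1850 and 1178. Their part in the differences below was not tested.

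Of 26 perivascular macrophage genes tested, 9 were called higher in iWAT and 0 higher in eWAT, beside 0.555% and 0.316% of all genes (list median log2 difference 1.24 against -0.02 over all genes). Retnla, which encodes the alternative activation product RELM-alpha, stood at 1003 and 209 CPM in eWAT and 4361 and 8414 in iWAT (3.40 ± 0.70, adjusted p = 0.0488). Timd4, a receptor for phosphatidylserine on apoptotic cells, stood at 4.19 and 0.898 against 13.5 and 28.1 (3.09 ± 0.54, adjusted p = 0.0338). The C-type lectin genes Cd209d (73.6 and 14.2 against 274 and 311) and Mgl2 (95.5 and 81.7 against 292 and 515), and Lyve1, the hyaluronan receptor gene (174 and 73.1 against 394 and 779), were also called. The libraries of the depots did not overlap for these 5 genes, which held for all 124 called genes and for 46.1% of all genes tested, and eWAT replicate 2 held the lowest value of each. Cd163, F13a1, Fcna and Ccl24 completed the group, while Selenop (0.10 ± 0.31, adjusted p = 0.907) did not pass the test.

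Of 30 LAM programme genes tested, 7 were called higher in eWAT and 0 higher in iWAT, beside 0.316% and 0.555% of all genes (list median log2 difference -1.11). Spp1, which encodes osteopontin, stood at 146 and 138 CPM in eWAT and 18 and 11.1 in iWAT (-3.29 ± 0.56, adjusted p = 0.0338). Gpnmb, a lysosomal glycoprotein gene of lipid-laden macrophages, stood at 1470 and 1727 against 324 and 321 (-2.31 ± 0.31, adjusted p = 0.0199). The elastase gene Mmp12 (904 and 765 against 260 and 236), the lipid droplet gene Plin2 (1588 and 2510 against 700 and 671) and the fatty acid binding protein gene Fabp5 (1321 and 1520 against 569 and 436) were also higher in eWAT. Trem2, the lipid receptor that marks these cells, stood at 1359 and 2071 CPM in eWAT and 502 and 607 in iWAT and did not pass the test (-1.63 ± 0.46, adjusted p = 0.12). Apoe (-0.08, adjusted p = 0.929), the most abundant list member, did not pass either.

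**Figure D4:**
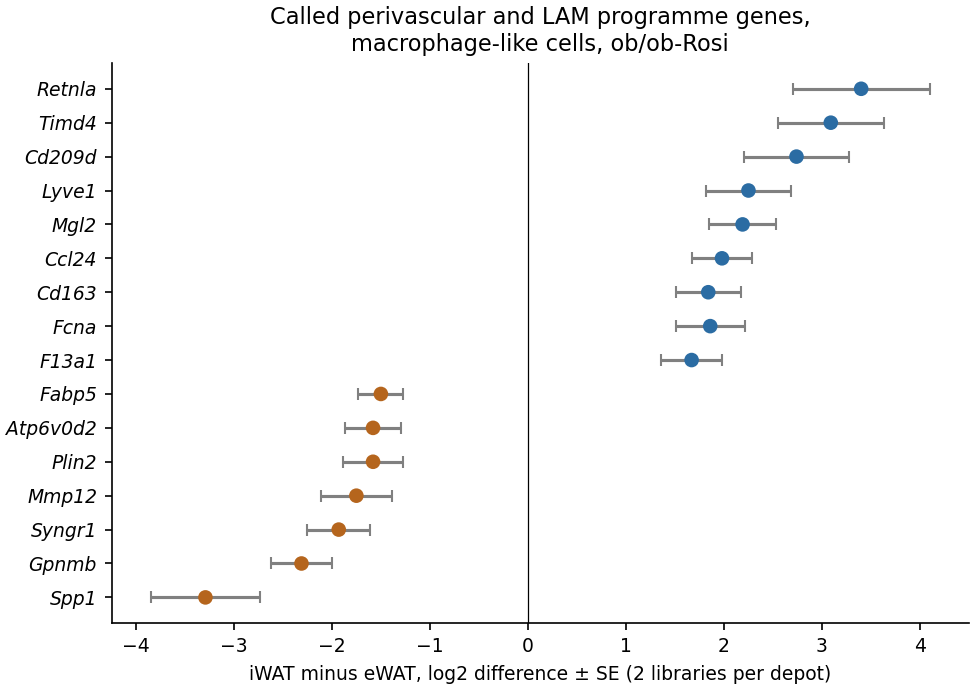
Log2 difference (iWAT minus eWAT) ± SE of the perivascular and LAM programme genes called in macrophage-like cells, 2 ob/ob-Rosi libraries per depot. The 9 perivascular genes lie between 1.67 (F13a1) and 3.40 (Retnla) and the 7 LAM genes between -1.50 (Fabp5) and -3.29 (Spp1).

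These sums also follow the makeup of the lineage, in which LAM-like cells numbered 1395 and 1783 in eWAT and 488 and 463 in iWAT, and PVM-like cells 1312 and 675 in eWAT and 2102 and 4739 in iWAT. Several members of both lists had served to name those clusters, so the lists are no independent evidence of the makeup. Beyond the lists, Pcp4l1 (17.4 and 25.6 CPM against 4.24 and 2.24), the chromatin factor gene Hmga2 (22.7 and 27.9 against 6.04 and 3.18) and Plxdc1 were higher in eWAT, and Kbtbd11 (7.5 and 4.2 against 20.4 and 31.3) and the transcription factor gene Irf4 (16.6 and 11.1 against 32.4 and 33.1) higher in iWAT. Of 47 lysosome genes 2 were called, both higher in eWAT (0.316% of all genes), among them the proton pump subunit gene Atp6v0d2 (364 and 422 CPM against 147 and 116). The MHC class II genes H2-Aa, H2-Ab1 and H2-Eb1 differed by 0.13 to 0.23 on the log2 scale and did not pass the test (adjusted p = 0.899, 0.779 and 0.87).

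Few genes were called in the remaining classes, and most of them were genes abundant in APC-like or macrophage-like cells. In EC-like cells 3 of 11371 genes were called (0.0264%), Igfbp5 (10.6 and 14.2 CPM against 78.9 and 96.6) and Pi16 higher in iWAT and Mgp (629 and 573 against 89.7 and 104) higher in eWAT, and 54 with the replicate block. In T/NK-like cells 18 of 11151 genes were called (0.161%), among them Igfbp5, Pi16, Sbsn and Dmkn higher in iWAT and Mgp and Trem2 higher in eWAT, and 83 with the block. In B-like cells 2 of 4682 (0.0427%), Mgp and Cxcl10, were called, both higher in eWAT, and 10 with the block. B-like cells numbered 29 and 46 in eWAT and 81 and 82 in iWAT, and Cxcl10 rested on 3 and 27 UMIs against 1 and 0. Its adjusted p by DESeq2 was 0.291, and it was called in 8 of 13 alternative settings. In mural-like cells 4 of 8843 genes were called (0.0452%), with Car3 higher in iWAT and Gpnmb, Trem2 and Lgals3 higher in eWAT, and 20 with the block. Mural-like cells held EC markers at 9223 to 10765 CPM, against 9466 to 10410 CPM in EC-like cells. The mural-like fit had 10 libraries.

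Over eWAT cells, Mgp had a mean of 10300 CPM in APC-like, 579 in EC-like, 1070 in T/NK-like, 365 in macrophage-like and 901 in B-like cells. Over iWAT cells, Igfbp5 had 4300 CPM in APC-like, 84.9 in EC-like, 472 in T/NK-like and 55.3 in macrophage-like cells. T/NK-like cells held the 8 APC markers at 3760 and 2316 CPM in eWAT and 6298 and 5568 in iWAT. None of the 3 genes called in EC-like cells, 2 of the 18 in T/NK-like cells and 1 each of those in mural-like, B-like and DC-like cells stood at 20% or more of the highest lineage of the depot. The part of RNA from other cells in these calls was not tested.

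In DC-like cells 3 of 9859 genes were called (0.0304%), and 15 with the block. Il12b, which encodes the p40 subunit that IL-12 and IL-23 share, stood at 142 and 63.8 CPM in eWAT and 0.842 and 0.659 in iWAT (-6.90 ± 0.67, adjusted p = 9.5e-05), with 2 UMIs in iWAT. Igfbp5 was higher in iWAT (11.9 and 3.09 CPM against 59.8 and 54.1) and Gpnmb higher in eWAT (102 and 168 against 27.8 and 21.1). DC-like cells numbered 413 and 423 in eWAT and 228 and 377 in iWAT, with median UMIs of 1341, 4970, 5837.5 and 4307.

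Summed over all cells, 221 of 16631 genes were called (1.33%), 104 higher in iWAT (0.625%) and 117 higher in eWAT (0.704%), and 770 with the replicate block, 219 of the 221 among them. In such sums, fewer cells of a type and less RNA per cell cannot be told apart. The leading genes were those of the classes, with Mrgprg, Akr1c18 and Krtdap higher in iWAT and Mgp (2813 and 2839 CPM against 321 and 241), Gpnmb (1064 and 1106 against 192 and 181) and Timp1 (143 and 278 against 34.8 and 31.2) higher in eWAT. Slpi, a protease inhibitor gene that also led the mesothelial-like cluster, stood at 266 and 109 CPM in eWAT and 27.7 and 5.11 in iWAT, and mesothelial markers summed to 113 and 64.8 against 16.4 and 4.07. The count was 2 without iWAT replicate 2 and 8 without eWAT replicate 2.

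Whether the depot difference under ob/ob-Rosi was the same as in the vehicle groups was tested as an interaction. In APC-like cells 33 of 14120 genes were called against ob/ob-Veh (0.234%, 469 with the replicate block), 19 with a larger difference toward iWAT under ob/ob-Rosi and 14 toward eWAT. Rspo3, which encodes an enhancer of Wnt signalling, stood at 2.65 and 1.5 CPM in eWAT and 11.8 and 27.2 in iWAT under ob/ob-Rosi, but at 32.6 and 41 in eWAT and 4.06 and 10.4 in iWAT under ob/ob-Veh. Cadm4 was higher in eWAT under ob/ob-Rosi (19.1 and 39 against 2.24 and 3.84) and higher in iWAT under ob/ob-Veh (0.589 and 0.269 against 1.79 and 2.33). Mrgprg was higher in iWAT under both, with log2 differences of 9.46 under ob/ob-Rosi and 3.24 under ob/ob-Veh. Different clusters held most APC-like cells under the treatments, clusters 0 and 3 in ob/ob-Rosi eWAT, 1 and 5 in ob/ob-Veh eWAT, 21 and 24 in ob/ob-Rosi iWAT and 22 in ob/ob-Veh iWAT. Cluster 4, with 1390 and 521 ob/ob-Veh eWAT cells, scored highest for APC markers but was left unnamed and so stayed out of the sums. The count was 3 without eWAT replicate 2 of ob/ob-Rosi, 6 without iWAT replicate 1, 9 without iWAT replicate 2 and 107 without WT-Veh iWAT replicate 1. The iWAT replicate 1 library of ob/ob-Rosi shared 94 barcodes with eWAT replicate 1 of ob/ob-Veh.

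In macrophage-like cells 4 of 14247 genes were called against ob/ob-Veh (0.0281%, 363 with the replicate block), named Il6, Ccl24, Akr1c18 and Bdh2. The count was 0 without eWAT replicate 2, 0 without iWAT replicate 2 and 0 with cells thinned to 700 UMIs, so that none of these calls was kept there, 10 without eWAT replicate 1 and 83 without WT-Veh iWAT replicate 1. The cytokine gene Il6 stood at 4.8 and 2.62 CPM in eWAT and 18.1 and 21.7 in iWAT under ob/ob-Rosi, and at 106 and 105 in eWAT and 27.2 and 33.7 in iWAT under ob/ob-Veh, so that the depots changed order (difference of differences 4.24 ± 0.44, adjusted p = 0.00981). Ccl24, an eosinophil chemokine gene, stood at 92.5 and 57.5 against 235 and 356 under ob/ob-Rosi and at 534 and 484 against 229 and 215 under ob/ob-Veh (3.17 ± 0.43, adjusted p = 0.0361). For both genes the eWAT value under ob/ob-Veh was the highest of the 4 pairs. Il6 was also among the 10 genes that led the unnamed cluster 4. That cluster held 1390 and 521 cells in ob/ob-Veh eWAT and 32 and 2 in ob/ob-Rosi eWAT. The part of its RNA in the Il6 values of macrophage-like cells was not tested.

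Against WT-Veh, edgeR called 0 genes in APC-like cells (188 at an unadjusted p under 0.05, 0 by DESeq2), 0 in macrophage-like cells (391, and 12 by DESeq2) and 0 in EC-like cells (130, and 0 by DESeq2). Against ob/ob-Veh it called 0 in EC-like cells (411, and 10 by DESeq2). With the replicate block 3 genes were called in macrophage-like cells against WT-Veh and 25 in EC-like cells against ob/ob-Veh. A count of 0 does not show that the depot differences were equal. With 2 libraries per depot, an exact permutation test of a single gene cannot give a p below 0.333, so the calls rest on the spread shared across genes and groups in the fit.

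**Figure D5:**
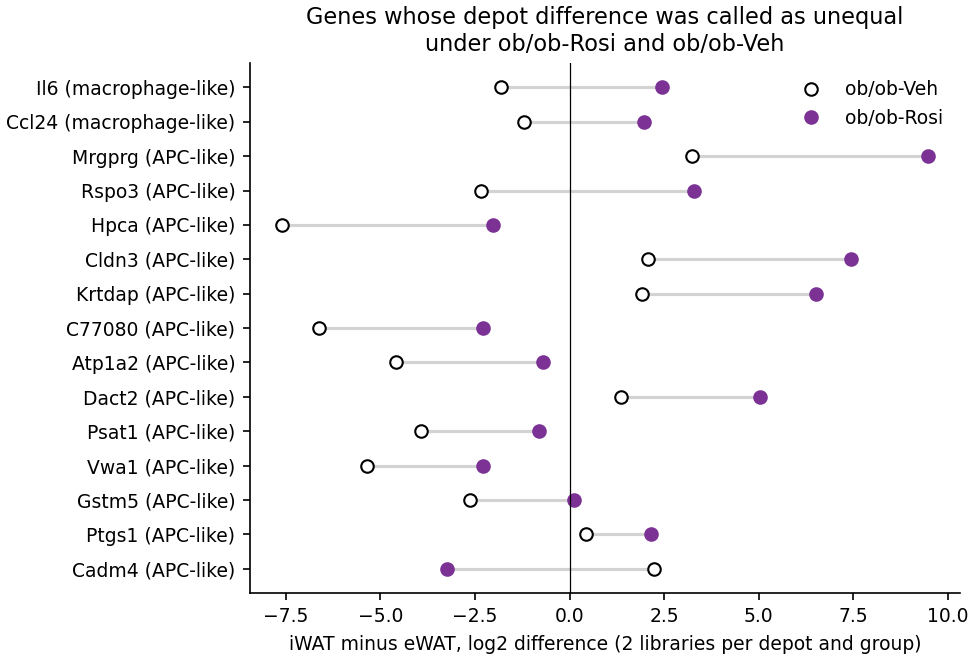
Log2 difference (iWAT minus eWAT) under ob/ob-Veh (open) and ob/ob-Rosi (filled) for 15 genes whose depot difference was called as unequal, 2 libraries per depot and group. Il6, Ccl24, Rspo3, Cadm4 and Gstm5 lie on opposite sides of 0 in the groups, Gstm5 at -2.62 and 0.13, and Mrgprg lies at 3.24 and 9.46.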

How the data were processed

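Stromal vascular cells of mouse eWAT and iWAT were profiled by 10x Genomics 3′ (v3.1) single-cell RNA-seq. Per the labels and the study's methods, the authors made the deposited UMI counts per gene and barcode with Cell Ranger 3.0.2 (mm10) after bcl2fastq 2.19.1.403, and no normalization was applied to these counts. The iWAT files held no barcode beyond the upper limits below on UMIs and mitochondrial share, and none under 200 genes, while the eWAT files did. The same limits were applied to both depots (700 to 22000 UMIs, 200 to 6000 genes, under 25% mitochondrial UMIs).

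Cells of all 12 libraries were clustered with scanpy 1.11.5 (2000 variable genes, 25 components, 20 neighbours, Leiden resolution 2, no integration). Clusters were named from marker genes, and mural-like cells were found by re-clustering EC-like cells with 15 components. Doublets were scored per library, 1.11% to 4.74% being marked in the 4 libraries, and removed only as an alternative.

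UMIs were summed per library and class (libraries with at least 20 cells of the class) and tested with edgeR 4.0.16 (TMM, filterByExpr, quasi-likelihood test) in R 4.3.3 over all 12 libraries in 6 groups, with 6 residual degrees of freedom. A gene was called with p, adjusted by the Benjamini-Hochberg method, not above 0.05 and a fold of 1.1 or more. Ratios from few UMIs have exact 95% counting intervals, and folds against 0 UMIs use a floor of 3 counts over the group, both covering counting error only. The fit was tested on simulated data, and a gene that did not pass may still differ. Whether precision rests more on the number of libraries or on depth was not tested. Marker sums and lineage means are plain CPM, all other CPM are TMM-scaled.

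Members and lists were chosen with earlier results of these data known. Named genes were, per class, the 5 largest folds in each direction among called genes with at least 20 CPM, non-overlapping libraries and at least 20% of the highest lineage level, together with the 4 highest members and the called member of largest fold in each direction of each list, and genes the study names. Other genes were named after their values were seen. A few genes that met the rule are not reported here. Predicted, immunoglobulin, haemoglobin and mitochondrial genes and markers of other lineages were left out.

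Libraries of the same number deviated together across depots, with correlations of deviations of 0.639 in ob/ob-Rosi, 0.57 in ob/ob-Veh and 0.394 in WT-Veh for APC-like cells and 0.694, 0.427 and 0.146 for macrophage-like cells. This pairing comes from the data, since the labels do not state it, and blocked counts are given beside the others. In T/NK-like and DC-like cells the WT-Veh correlations were 0.028 and 0.027. Alternatives were DESeq2 1.42.0, no low-count filter, library size scaling, 4 or 8 libraries, the replicate block, a resolution of 1, thinning each cell to 700 UMIs, removal of marked doublets, lineages assigned cell by cell and each of the 4 ob/ob-Rosi libraries left out. Leaving out shared barcodes or WT-Veh iWAT replicate 1, whose median of 1132 UMIs was the lowest, was added after seeing the data.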

Additional observations from a re-analysis of the deposited data

Results flagged for a closer look

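The depot difference (iWAT minus eWAT, log2) under ob/ob-Rosi differed from that under ob/ob-Veh by the interaction test of edgeR for 6 genes named here. In APC-like cells Mrgprg differed by 6.22 ± 0.92 (adjusted p = 0.0348), with 119 and 252 CPM in ob/ob-Rosi iWAT and 37.2 and 77 in ob/ob-Veh iWAT. Rspo3 differed by 5.64 ± 0.98 (adjusted p = 0.0477), with depot differences of 3.29 and -2.35. Hpca, a neuronal calcium sensor gene, differed by 5.56 ± 0.88 (adjusted p = 0.0421), at 3.58 and 4.57 CPM in eWAT and 1.76 and 0.422 in iWAT under ob/ob-Rosi and at 23.6 and 33.3 and at 0.119 and 0.161 under ob/ob-Veh. Cadm4 differed by -5.45 ± 0.74 (adjusted p = 0.0236), with depot differences of -3.23 and 2.22. In macrophage-like cells Il6 differed by 4.24 ± 0.44 and Ccl24 by 3.17 ± 0.43. The part of RNA from the unnamed cluster 4, which Il6 also led, was not tested. Each of the 6 also passed with the replicate block. Neither macrophage-like gene was called without eWAT replicate 2, without iWAT replicate 2 or with cells thinned to 700 UMIs, where 0 genes were, and 3 genes were called in APC-like cells without eWAT replicate 2.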

How the results depend on the processing

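Counts of called genes followed the setting more than their direction did. With the replicate block (paired numbers) calls numbered 770 in whole libraries, 1641 in APC-like, 800 in progenitor-like, 1077 in preadipocyte-like, 751 in macrophage-like, 54 in EC-like, 20 in mural-like, 83 in T/NK-like, 10 in B-like and 15 in DC-like cells, 469, 363 and 25 interactions against ob/ob-Veh (APC-like, macrophage-like, EC-like), 3 against WT-Veh in macrophage-like cells and 2 cell classes. DESeq2 gave 1049 (whole libraries), 1041 (APC-like), 445 (progenitor-like), 587 (macrophage-like), 16 (EC-like), 1 (mural-like), 54 (T/NK-like), 1 (B-like) and 8 (DC-like), and interactions of 266, 435 and 10 against ob/ob-Veh and 12 against WT-Veh in macrophage-like cells. With no low-count filter, which tests more genes, the counts in the order of the first sentence on the block were 613, 1409, 631, 707, 842, 79, 17, 156, 21 and 39, with 575, 586 and 67 interactions against ob/ob-Veh and 22, 76 and 33 against WT-Veh. With the 4 ob/ob-Rosi libraries alone, which leaves fewer samples, they were 11 (whole libraries), 407 (APC-like), 125 (preadipocyte-like), 1 (macrophage-like), 0 (EC-like), 2 (mural-like), 0 (B-like) and 1 (DC-like). With the 8 ob/ob libraries they were 523 (whole libraries), 9 (EC-like), 94 (T/NK-like) and 8 (DC-like), with 102, 15 and 3 interactions and 2 cell classes. Thinned to 700 UMIs they were 71, 348, 85, 120, 30, 1 (EC-like), 2 (T/NK-like), 0 (B-like) and 1 (DC-like), with 16 and 0 interactions against ob/ob-Veh. With doublets removed they were 0 (EC-like), 7 (T/NK-like), 0 (B-like) and 5 (DC-like), and with shared barcodes left out 1 (B-like). With cells assigned singly they were 440 (APC-like), 399 (macrophage-like), 10 (EC-like), 211 (mural-like) and 0 (B-like), with 11, 7 and 3 interactions and 2 cell classes. At the lower resolution they were 440 (preadipocyte-like), 6 (EC-like) and 4 (T/NK-like), with 66 and 1 interactions in APC-like and EC-like cells. Progenitor-like cells then had 1 ob/ob-Rosi eWAT library left in the fit, so their count is not set beside these.

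With an ob/ob-Rosi library or WT-Veh iWAT replicate 1 left out, counts ran from 2 to 445 (whole libraries), 245 to 950 (APC-like), 112 to 433 (progenitor-like), 123 to 362 (preadipocyte-like), 1 to 202 (macrophage-like), 0 to 15 (EC-like), 0 to 10 (mural-like), 1 to 96 (T/NK-like), 0 to 8 (B-like) and 1 to 9 (DC-like), with 3 to 107, 0 to 83 and 0 to 2 interactions against ob/ob-Veh and 0 to 2 cell classes. A lone library is then assumed to vary like the other groups.

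With cells assigned singly, the log2 difference of the number of cells in the haemoglobin and mast marker class was 0.85 (-8.13 otherwise). That of neutrophil-like cells was -0.54 (1.98 otherwise), that of mural-like cells -0.28 (0.43 otherwise) and that of lymphatic endothelial-like cells 1.09 (-3.82 otherwise). T/NK-like cell numbers, at 0.43, were at -0.06 without eWAT replicate 1. Icam1 in APC-like cells was 0.02 with doublets removed and 0.22 with cells assigned singly, and -0.70 to 0.40 with 1 library left out. Cd36 was -0.05 with the replicate block, -0.13 singly and -0.71 at the lower resolution, and -0.79 to 0.67 with 1 library left out. Pdgfra ran from -0.33 to 0.81 and Pparg from -0.08 to 1.18. None of these 4 genes had passed the test. At the lower resolution Col4a1 (1.02), Col15a1 (10.24), Col6a5 (4.6), Bmper (8.92) and Hspa1b (9.75) turned in progenitor-like cells. There the progenitor-like clusters 15 and 16 held 16 and 7 and then 4 and 0 cells of the ob/ob-Rosi eWAT libraries. eWAT replicate 2 thus left the fit, and the turned values rest on 1 eWAT library with few cells. The cause of the turns was not tested.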
